A study of Mus musculus with 6 samples.

Results

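The genes described here encode the machinery of mitochondrial oxidative phosphorylation. They were chosen by symbol: every gene whose single symbol in the array annotation starts with Nduf, Uqcr, Atp5, Cox4i, Cox5, Cox6, Cox7 or Cox8, together with Sdha, Sdhb, Sdhc, Sdhd, Cyc1 and Cycs. That gave 91 of 19938 genes, and where a gene had several probe sets, the one that was brightest on average over the 6 arrays stood for it. They comprise 6 core and 28 accessory subunits of complex I, 7 complex I assembly factors, 4 subunits of complex II, 9 of complex III, cytochrome c, 19 subunits and isoforms of complex IV, and 17 subunits of ATP synthase. The 7 Ndufaf genes build complex I without being part of the finished enzyme, so that 84 of the 91 genes are subunits, isoforms of subunits or cytochrome c.

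Natural killer (NK) cells were sorted from the spleens of C57Bl/6 mice aged 8 to 12 weeks as YFP+, CD27+, NK1.1+ and CD3-, immediately after harvest. Of the 6 arrays, 3 were labelled 15a/16-1FKO, called knockout here, and 3 were labelled Ctrl. The labels name neither the Cre line nor the driver behind YFP and the deletion, nor do they say how many animals gave the cells. Because the series describes the arrays within each genotype as technical replicates, every p-value here reflects array-to-array spread alone. The sex-linked transcripts given further on differed widely within a genotype, which arrays of a single RNA would not show, so that what the arrays of a genotype share is not settled. The question was what loss of microRNA-15a and microRNA-16-1 does to CD27+ NK cells, and the series title names c-Myb as the target.

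The respiratory chain passes electrons from NADH through complex I, or from succinate through complex II, to complex III, then by way of cytochrome c to complex IV, which reduces oxygen. Complexes I, III and IV pump protons across the inner mitochondrial membrane, and ATP synthase uses the returning protons to make ATP. Most subunits are encoded in the nucleus, and a few core ones in mitochondrial DNA. In lymphocytes at rest the chain supplies most ATP, and activated NK cells raise both respiration and glycolysis.

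The microRNAs named in the genotype are shown because their seed is the sequence by which they would pair with a transcript. Capitals mark the seed, bases 2 to 8, which both share. The sequences are from RefSeq on build GRCm38.p6. MicroRNA-15a-5p lies at chr14:61632075-61632096 and microRNA-16-5p at chr14:61631936-61631957, both on the minus strand. None of the 91 genes lies on chromosome 14.
miR-15a-5p: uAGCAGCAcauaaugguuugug
miR-16-5p: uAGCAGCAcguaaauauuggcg

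One of the deleted microRNA genes was measurable. The probe set of Mir15a, the precursor gene of microRNA-15a, read 4.37, 3.53 and 3.43 on the log2 scale in knockout cells, against 7.14, 6.02 and 6.69 in Ctrl cells, with a difference of -2.84 (SE 0.31, adjusted p = 0.0296, limma). The probe set of Mir16-1, the precursor gene of microRNA-16-1, had a mean of 3.08, which is below the background level defined next, with a difference of -0.63 (SE 0.19, adjusted p = 0.999, limma). Arrays of one genotype correlated with r of 0.982 to 0.984 over all genes, and arrays of different genotypes with r of 0.981 to 0.987. Array medians lay between 4.23 and 4.33. All 13 NK cell markers, among them Ncr1, Klrb1c, Eomes and Gzma, lay above 4.13, the level under which 95% of 1027 olfactory receptor genes lay and which serves here as a background. Of the other cell types, 3 of 7 T cell markers (Cd3d, Cd3e and Cd3g) and 2 of 5 B cell markers also did. So did 3 of 7 myeloid markers (Cd68, Lyz2 and Itgax), 5 of 6 neutrophil, 2 of 3 erythroid and 2 of 5 platelet markers. Their part in the results was not tested. With no read depth in such data, precision depended on the number of arrays and on the spread between them. At the same number of arrays, the SE was 0.13 for Uqcrc2 and 0.42 for Ndufs5.

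No gene of oxidative phosphorylation passed the test between genotypes. Of the 91 genes, 0 had an adjusted p under 0.05 (limma, Benjamini-Hochberg over 19938 genes), where 0.0201% of all genes did. The smallest adjusted p among the 91 was 0.999. At an unadjusted p under 0.05, 1 gene was higher in knockout cells (Ndufaf5, a complex I assembly factor) and 3 were lower (the complex IV isoforms Cox6b2, Cox7a1 and Cox6a2). These 4 genes are 4.40% of the 91, against 3.47% of all genes. Knockout and Ctrl arrays were fully separated for 2 genes with knockout arrays above Ctrl arrays (Ndufaf1 and Ndufaf5, where 3.68% of all genes did so) and for 1 with knockout arrays below (Cox8b, where 4.65% did so).

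Differences were small and most were below 0. The log2 difference, knockout minus Ctrl, had a median of -0.07 over the 91 genes and of -0.01 over all genes, and ran from -0.71 for Cox7a1 to 0.30 for Ndufaf5. It was below 0 for 63 genes, or 69.2%, against 52.1% of all genes and 64.9% of 77 mitochondrial ribosomal protein genes. The 95% interval of the difference contained 0 for 87 genes. It stayed within a 2-fold change in either direction for 88 genes and within a 1.5-fold change for 64. The median standard error was 0.17 on the log2 scale. The size of the median depended on single arrays. It was -0.18 without Ctrl replicate 1, with 76 genes below 0, and -0.03 without knockout replicate 1, with 49 below 0. Its sign turned only without Ctrl replicate 2, where it was 0.01, with 43 genes below 0. In bulk RNA, fewer cells with a high mitochondrial content and less RNA per cell cannot be told apart.

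**Figure D1:**
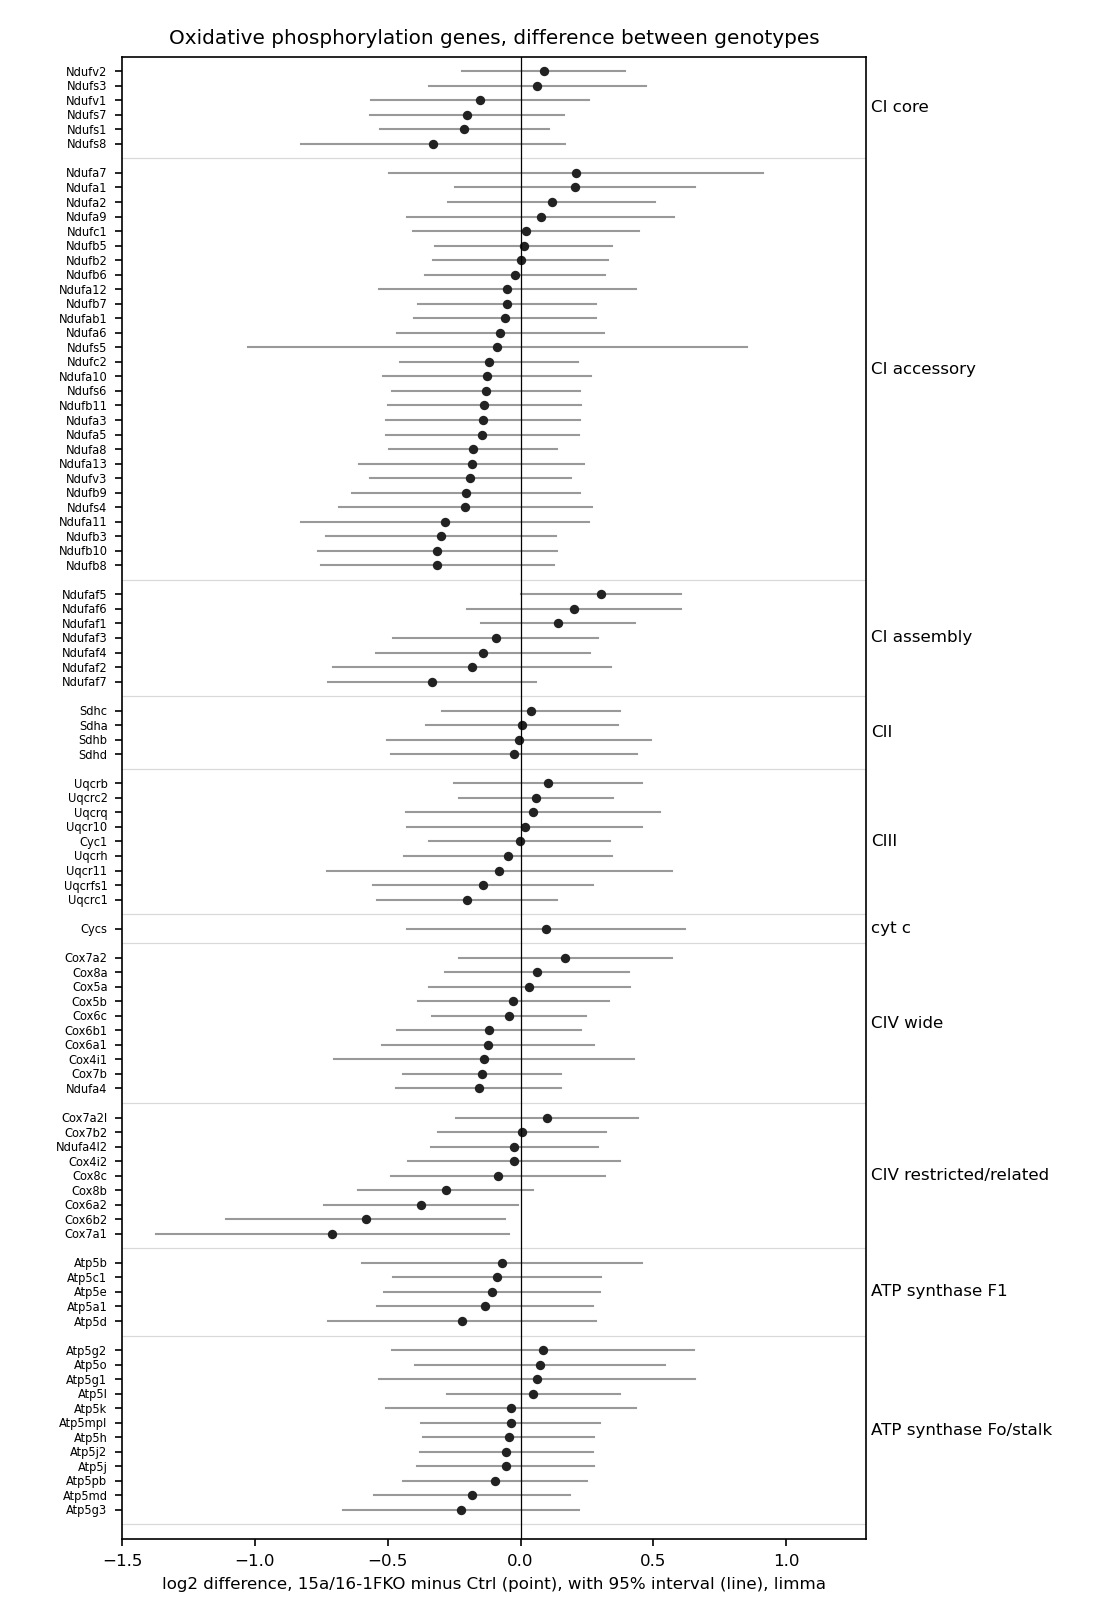
Log2 difference, 15a/16-1FKO minus Ctrl (points), with its 95% interval from limma (lines), for all 91 genes, grouped by complex (CI to CIV, complexes I to IV). Points lie between -0.71 and 0.30, and 87 of 91 intervals cross the line at 0.

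Complex I takes electrons from NADH. Its 34 subunit genes had a median difference of -0.13, with 25 below 0, 0 past the threshold and 0 with an unadjusted p under 0.05. That median was -0.06 without knockout replicate 1, -0.20 without Ctrl replicate 1 and -0.03 without Ctrl replicate 2. The 6 core subunits, which carry the flavin and iron-sulfur centres, had a median of -0.18 and ran from -0.33 to 0.09. Ndufs8, which holds iron-sulfur centres, read 6.57, 7.14 and 6.87 in knockout cells, against 6.81, 7.59 and 7.17 in Ctrl cells. Its difference was -0.33 (SE 0.22, limma unadjusted p = 0.169). Within each genotype replicate 2 was the highest array and replicate 1 the lowest, and the genotypes overlapped. Ndufs1, the largest core subunit, read 6.17, 5.91 and 6.08 in knockout cells, against 6.28, 6.38 and 6.14 in Ctrl cells (difference -0.21). A single knockout array, replicate 1, reached into the Ctrl range. Ndufv2, of the NADH-oxidising module, had the most positive core difference, 0.09, and Ndufv1, the flavin-binding subunit, had -0.15.

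The 28 accessory subunits of complex I, which surround and stabilise the core, had a median difference of -0.12, with 21 below 0. The 4 most negative differences belonged to subunits of the membrane arm, Ndufb8 (-0.31), Ndufb10 (-0.31), Ndufb3 (-0.30) and Ndufa11 (-0.28). Ndufb8 read 7.70, 7.69 and 8.05 in knockout cells, against 7.74, 8.25 and 8.39 in Ctrl cells. Ndufb3 read 5.75, 5.97 and 5.94 in knockout cells, against 5.76, 6.42 and 6.38 in Ctrl cells. In both genes Ctrl replicate 1 lay among the knockout arrays and the other Ctrl arrays lay above all of them. At the other end, Ndufa7 and Ndufa1 each had a difference of 0.21. Ndufa7 read 7.52, 8.13 and 8.24 in knockout cells, against 7.11, 8.44 and 7.72 in Ctrl cells, so that its Ctrl arrays held both its lowest and its highest value. Ndufs5 had the widest range over the 6 arrays of all 91 genes, 1.71, with 8.40, 9.13 and 7.54 in knockout cells and 7.91, 9.25 and 8.16 in Ctrl cells.

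The assembly factors of complex I did not share a direction. Of 7 genes, 4 had a difference below 0, and the median was -0.09. Ndufaf5, whose human counterpart hydroxylates the core subunit NDUFS7, read 5.99, 6.01 and 6.19 in knockout cells, against 5.84, 5.72 and 5.71 in Ctrl cells. All knockout arrays lay above all Ctrl arrays, with a difference of 0.30 (SE 0.13, limma unadjusted p = 0.0487). Ndufaf1, a chaperone of the early membrane arm, also kept its genotypes apart, at 6.03, 6.13 and 6.02 in knockout cells and 5.94, 5.85 and 5.96 in Ctrl cells (difference 0.14, SE 0.13). Ndufaf7, a methyltransferase, had the opposite sign, with 5.91, 5.47 and 5.61 in knockout cells and 5.83, 6.27 and 5.90 in Ctrl cells (difference -0.33, SE 0.17, limma unadjusted p = 0.0877). Knockout replicate 1 lay inside its Ctrl range.

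Complex II, succinate dehydrogenase, is the one complex with all subunits encoded in the nucleus, and it also works in the citrate cycle. Its 4 genes had differences between -0.02 and 0.04. Sdha, the flavoprotein, read 8.02, 8.10 and 7.84 in knockout cells, against 7.98, 8.22 and 7.74 in Ctrl cells (difference 0.00, 95% interval -0.36 to 0.37). The iron-sulfur subunit Sdhb had a difference of -0.01, and the membrane anchors Sdhc and Sdhd had 0.04 and -0.02. The intervals of the 4 genes reached at most 0.50 from 0, so that smaller differences could not be resolved with 3 arrays a genotype.

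Complex III and cytochrome c had a median difference of 0.01, with 5 of 10 genes below 0. Uqcrc1, a core protein of the matrix arm, had the most negative value, -0.20, with 6.40, 6.14 and 6.10 in knockout cells and 6.30, 6.60 and 6.34 in Ctrl cells. Only knockout replicate 1 lay inside the Ctrl range. The catalytic subunits Cyc1 (cytochrome c1) and Uqcrfs1 (the Rieske iron-sulfur protein) had differences of -0.00 and -0.14. Uqcrb, which binds ubiquinone, had the most positive, 0.10. Its other probe sets had -0.14 and 0.04, so that its sign depended on the probe set. Cycs, the mobile carrier between complexes III and IV, read 7.99, 7.83 and 8.30 in knockout cells, against 7.61, 8.48 and 7.74 in Ctrl cells (difference 0.10, SE 0.23). All knockout arrays fell between the lowest and the highest Ctrl array.

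Complex IV, cytochrome c oxidase, uses different nuclear isoforms in different tissues. The 10 widely expressed subunits had a median difference of -0.08, from -0.16 for Ndufa4 to 0.17 for Cox7a2, with 0 at an unadjusted p under 0.05. The 9 tissue-restricted or related isoforms had a median of -0.09 and held the 3 lowest differences of all 91 genes. Cox7a1, the heart and skeletal muscle form, read 3.95, 3.84 and 4.38 in knockout cells, against 4.36, 4.41 and 5.53 in Ctrl cells (difference -0.71, SE 0.30, limma unadjusted p = 0.0388). Cox6b2, the testis form, read 4.76, 5.28 and 4.73 in knockout cells, against 5.38, 5.15 and 5.98 in Ctrl cells (difference -0.58, SE 0.23, limma unadjusted p = 0.0330). In both genes Ctrl replicate 3 stood above the other 5 arrays, and 1 knockout array lay inside the Ctrl range. Without Ctrl replicate 3 the differences were -0.33 for Cox7a1 and -0.34 for Cox6b2. The mean of Cox7a1 in knockout cells, 4.06, was below the background level of 4.13.

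Cox6a2, another heart and skeletal muscle form, was well above background. It read 7.02, 7.26 and 6.80 in knockout cells, against 7.22, 7.48 and 7.50 in Ctrl cells (difference -0.38, SE 0.16, limma unadjusted p = 0.0446). Knockout replicate 2 was just above Ctrl replicate 1, and the remaining arrays kept apart. Widely expressed partners of these forms had -0.12 (Cox6a1 beside -0.38 for Cox6a2), -0.12 (Cox6b1 beside -0.58 for Cox6b2) and 0.17 (Cox7a2 beside -0.71 for Cox7a1). These pairs are the ones whose restricted forms had the lowest differences of the 91 genes. Other pairs went the other way, with -0.14 for Cox4i1 beside -0.02 for Cox4i2 and -0.14 for Cox7b beside 0.01 for Cox7b2. Ndufa4 had -0.16 beside -0.02 for its paralog Ndufa4l2. The differences between isoforms were not tested. Cox8a, the common form of subunit VIII, had a difference of 0.06, beside -0.28 for Cox8b and -0.09 for Cox8c. For Cox4i1, the main regulatory subunit, the difference was -0.14, and its knockout arrays (9.03, 9.18 and 9.08) lay between Ctrl arrays at 8.67 and 9.83, with the last Ctrl array at 9.20. Cox7a2l, one of the related isoforms, had 0.10 by its brighter probe set and -0.22 by the other. That was the widest gap between probe sets of any of the 91 genes.

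Of the 91 genes, 86 had a mean above the background level. The 5 below it were Cox7b2 (a testis isoform, mean 2.26), Cox8b (a heart and muscle isoform, 3.21), Ndufa4l2 (a paralog of Ndufa4 induced in hypoxia, 3.40), the assembly factor Ndufaf6 (3.72) and Cox4i2 (a lung isoform, 4.10). Just above it lay Cox8c, a testis isoform, at 4.20. Cox8b was the one gene with all knockout arrays below all Ctrl arrays, at 3.08, 2.99 and 3.13 in knockout cells, against 3.30, 3.18 and 3.56 in Ctrl cells (difference -0.28). The other dim genes had differences of 0.01 for Cox7b2, -0.02 for Ndufa4l2, 0.20 for Ndufaf6, -0.02 for Cox4i2 and -0.09 for Cox8c. RMA understates differences at such levels. The 3 genes with the highest means were Cox6b1 (11.2), Atp5e (11.0) and Cox6a1 (10.9), although levels of different probe sets cannot be ranked as amounts of RNA.

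**Figure D2:**
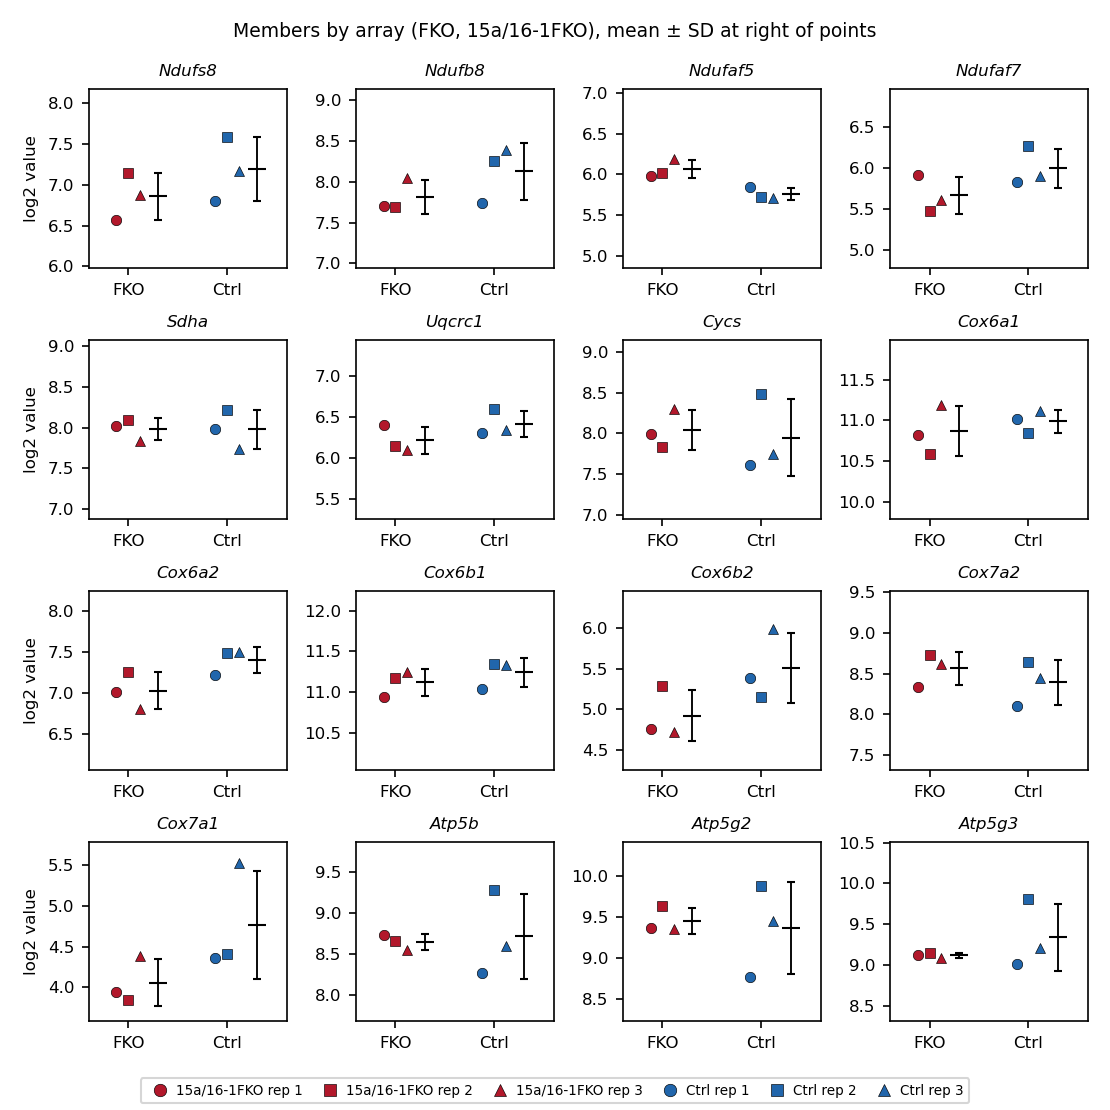
Log2 values of 16 genes in each array, 15a/16-1FKO (labelled FKO, red) left of Ctrl (blue), with the mean ± SD (n = 3) at the right of the points and an axis of the same length in every panel. Ndufaf5 is the one gene among them whose genotypes do not overlap, and Atp5b, Atp5g2, Atp5g3, Cycs and Sdha show Ctrl arrays on both sides of all knockout arrays.

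ATP synthase is a rotary enzyme with an F1 head that makes ATP and an Fo ring that carries protons. Its 17 genes had a median difference of -0.06, with 13 below 0 and 0 at an unadjusted p under 0.05. All 5 genes of the F1 head lay below 0, from -0.07 for Atp5b, the catalytic subunit, to -0.22 for Atp5d, of the central stalk. Atp5b read 8.73, 8.66 and 8.54 in knockout cells, against 8.26, 9.29 and 8.59 in Ctrl cells. Atp5d read 8.15, 8.22 and 8.28 in knockout cells, against 7.99, 8.97 and 8.35 in Ctrl cells. In both genes Ctrl replicate 2 was the highest array and Ctrl replicate 1 the lowest. The 12 genes of Fo and the stalks had a median of -0.04, with 8 below 0.

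Subunit c of the Fo ring is encoded by 3 genes that give the same mature protein. Atp5g3 read 9.12, 9.15 and 9.08 in knockout cells, against 9.02, 9.80 and 9.20 in Ctrl cells (difference -0.22, SE 0.20). Atp5g1 and Atp5g2 had differences of 0.06 and 0.09. Atp5g2 read 9.37, 9.63 and 9.36 in knockout cells, against 8.76, 9.89 and 9.46 in Ctrl cells. In each of the 3 genes the knockout arrays stayed between the extremes of the Ctrl arrays. Without Ctrl replicate 1 the median of ATP synthase was -0.22, and without Ctrl replicate 2 it was 0.0089.

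Single arrays were shifted by more than the median difference between genotypes. For each gene the mean over the 6 arrays was subtracted, and the median of these deviations over the 91 genes was taken in each array. It was -0.14, 0.01 and 0.03 in knockout replicates 1 to 3, and -0.15, 0.16 and 0.09 in Ctrl replicates 1 to 3. Ctrl replicate 2 was the highest of the 6 arrays for 40 of the 91 genes, or 44.0%, against 15.8% of all genes. Knockout replicate 1 was the lowest for 26 genes, or 28.6%, against 22.2% of all genes, and Ctrl replicate 1 was the lowest for 35, or 38.5%, against 13.4%. The lowest array medians therefore came from 1 array of each genotype, and the highest from a Ctrl array. Other groups of genes had part of this pattern. Ctrl replicate 2 was the highest array for 25.8% of 982 genes with a mean of 8 or more. It was so for 42.9% of mitochondrial and 33.8% of cytosolic ribosomal protein genes. In the same order, Ctrl replicate 1 was the lowest for 27.3%, 28.6% and 35.2%, and knockout replicate 1 for 10.6%, 18.2% and 11.3%.

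The 91 genes varied less among knockout arrays than among Ctrl arrays in most cases. The SD was smaller among knockout arrays than among Ctrl arrays for 58 of the 91 genes, or 63.7%, against 46.8% of all genes. The same held for 59.7% of the mitochondrial and 60.6% of the cytosolic ribosomal protein genes. The median SD over the 91 genes was 0.18 among knockout arrays and 0.24 among Ctrl arrays, where over all genes it was 0.18 among knockout arrays and 0.17 among Ctrl arrays. In the F1 head of ATP synthase it was 0.09 among knockout arrays and 0.32 among Ctrl arrays. Whether the spreads differ was not tested, since members measured on the same arrays are not replicates.

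**Figure D3:**
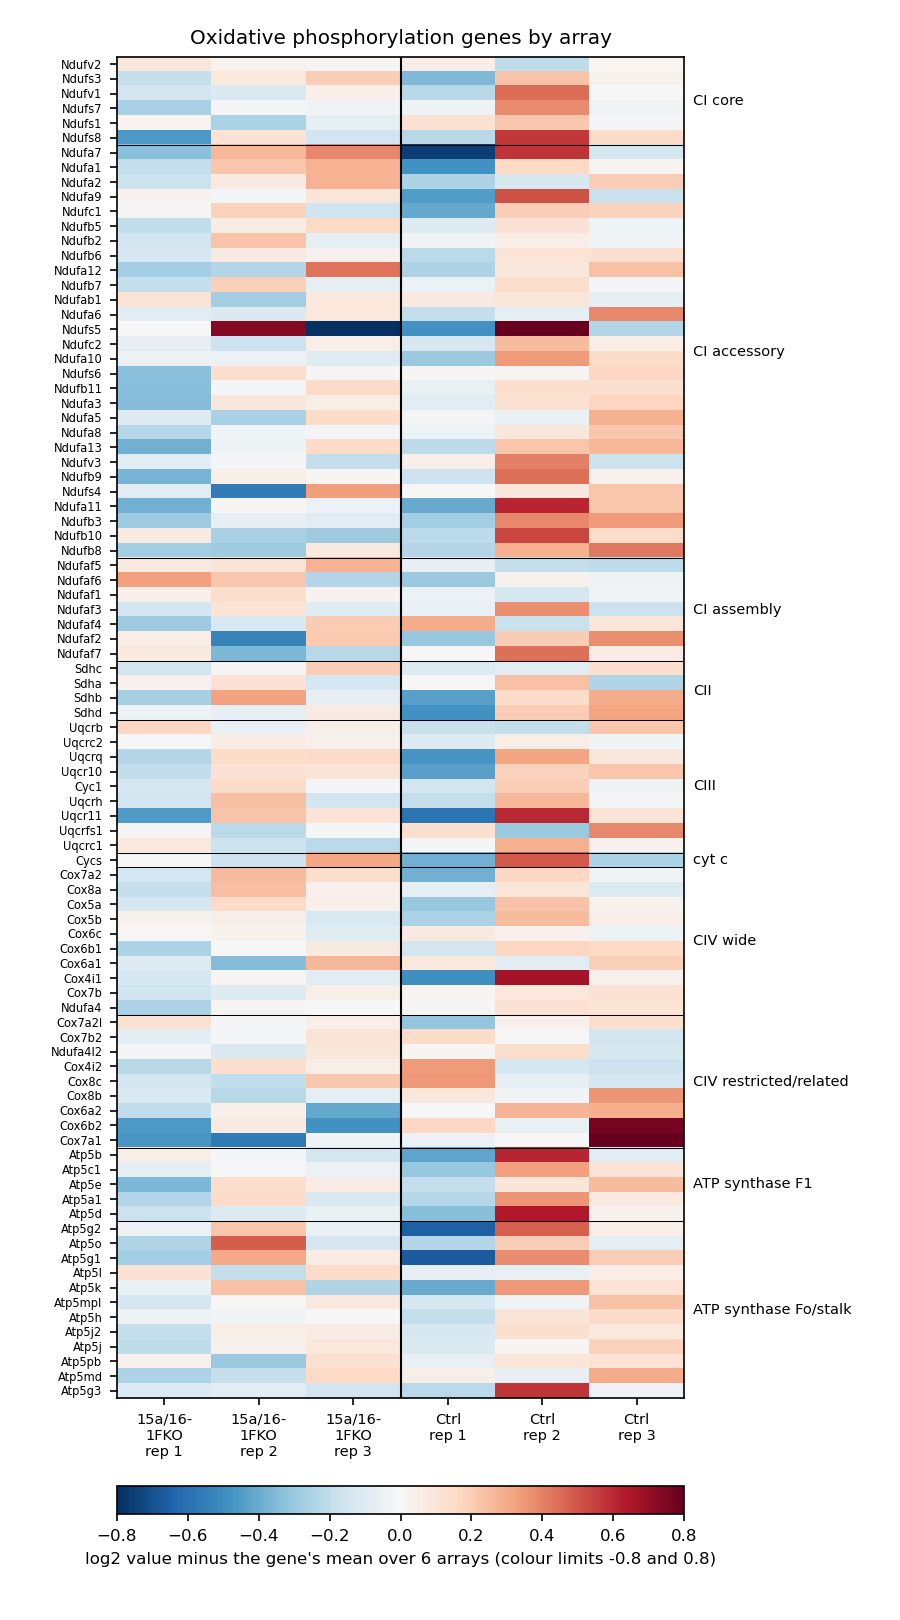
Log2 value minus the gene's mean over the 6 arrays for each of the 91 genes (rows, by complex, then by falling difference) in each array (columns, 15a/16-1FKO left of Ctrl), in colour from -0.8 (blue) to 0.8 (red), beyond which the colour no longer deepens. Ctrl replicate 2 is the column with the most red, and 15a/16-1FKO replicate 1 and Ctrl replicate 1 are those with the most blue.

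Most complexes shared their lowest and their highest array. Ctrl replicate 2 had the highest median deviation in all but complex II, where it had 0.17 and Ctrl replicate 3 had 0.22. In complex I, complex II, complex III with cytochrome c, and ATP synthase, Ctrl replicate 1 had the lowest median deviation of the 6 arrays, between -0.27 and -0.19. Complex IV as a whole was the exception, with 0.01 in Ctrl replicate 1 and its lowest median, -0.14, in knockout replicate 1. Its 10 widely expressed subunits had -0.14 in knockout replicate 1, -0.11 in Ctrl replicate 1 and 0.14 in Ctrl replicate 2. Its 9 tissue-restricted or related isoforms, 4 of them below background, had -0.14 in knockout replicate 1 and 0.09 in Ctrl replicate 1. Knockout replicate 1 was thus the lowest array in both lists. The 77 mitochondrial ribosomal protein genes, which serve translation inside the organelle, had -0.04, -0.03 and -0.02 in the knockout arrays and -0.14, 0.18 and 0.04 in the Ctrl arrays. The 71 cytosolic ribosomal protein genes had 0.03, -0.02 and -0.004 in the knockout arrays and -0.06, 0.04 and 0.02 in the Ctrl arrays. Ctrl replicate 1 was thus the lowest and Ctrl replicate 2 the highest there too, over a smaller range. The 982 genes with a mean of 8 or more, the range of 51 of the 91 genes, stayed between -0.05 and 0.06. The array medians of all genes lay within 0.03 of 0.

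**Figure D4:**
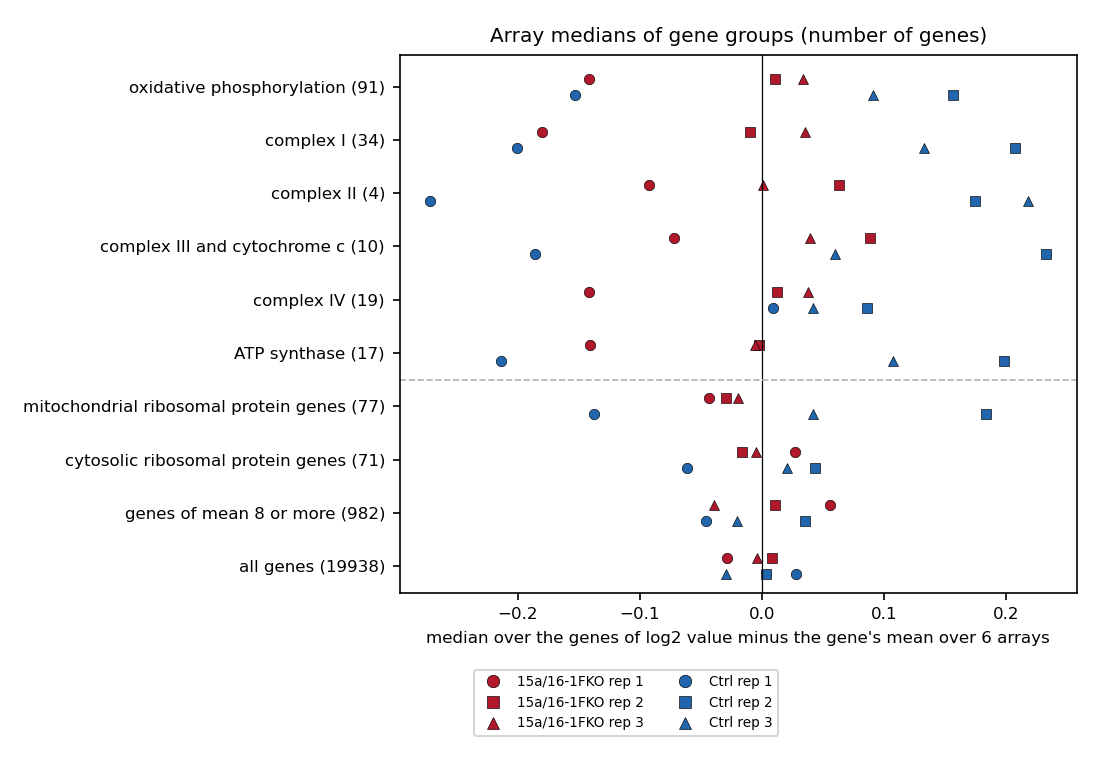
Median over the genes of a group of the log2 value minus the gene's mean over the 6 arrays, for each array (red, 15a/16-1FKO, above blue, Ctrl, with 1 symbol for each replicate number) and group of genes, with the number of genes in brackets. Ctrl replicate 1 lies at -0.15 and Ctrl replicate 2 at 0.16 for the 91 genes, whereas all arrays stay within 0.03 of 0 for all genes.

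Sex-linked transcripts also set these Ctrl arrays apart. Xist, transcribed from the inactive X chromosome, read 7.56, 8.58 and 8.84 in knockout arrays, against 9.65, 3.89 and 8.86 in Ctrl arrays. Y-linked Eif2s3y read 7.88, 6.60 and 6.18 in knockout arrays, against 2.33, 7.95 and 6.29 in Ctrl arrays. Ctrl replicate 1 thus had the highest Xist and the lowest Eif2s3y, and Ctrl replicate 2 the reverse. Xist minus the mean of 3 Y-linked genes was 0.66, 3.11 and 4.03 in knockout arrays, against 6.72, -2.86 and 3.66 in Ctrl arrays. With this index as a covariate, the median difference of the 91 genes was -0.06, with 63 below 0 and 0 past the threshold.

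The regulators of these genes were measured on the same arrays. Of 18 regulators of mitochondrial genes, 0 passed the threshold, and their median difference was -0.00. Nrf1, a transcription factor of respiratory genes, had a difference of 0.20 (SE 0.18), Gabpa, an ETS factor of the same genes, had -0.04, and Myc had -0.08. The nuclear receptor Esrra had -0.11 and the coactivator Ppargc1b -0.08. Tfam, which packs and transcribes mitochondrial DNA, read 5.74, 5.15 and 5.49 in knockout cells, against 5.31, 6.00 and 5.83 in Ctrl cells (difference -0.25, SE 0.22), and the genotypes overlapped. The smallest p-values on this list belonged to Polg2, a subunit of the mitochondrial DNA polymerase (0.34, SE 0.17), and Tfb2m, a mitochondrial transcription factor (0.24, SE 0.17).

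Promoters were searched for the words that such factors bind. Of the 91 genes, 74 matched windows of 300 bases around the start in RefSeq (GRCm38.p6), with 79 windows in all. The NRF1 word GCGCATGCG, on either strand, was in 13.9% of these windows, against 2.35% of 21262 windows of protein-coding genes. The ETS word CCGGAAG was in 22.8%, against 11.6%, the CRE word TGACGTCA in 6.33%, against 2.23%, and the YY1 word ATGGCGGC in 8.86%, against 3.01%. The MYB word TAACNG was in 20.3%, against 21% of all windows. A word is a description of these letters, and the words can overlap. The sites below are shown because they hold such words in genes described above. Capitals mark the word on either strand, joined where matches overlap, and all run 5′ to 3′ along the gene's own strand.
Cycs, NRF1, chr6:50566602-50566650, minus strand: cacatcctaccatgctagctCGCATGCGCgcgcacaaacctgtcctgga
Cycs, CRE, chr6:50566711-50566758, minus strand: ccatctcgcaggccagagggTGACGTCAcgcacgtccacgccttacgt
Ndufa11, NRF1, chr17:56717682-56717731, plus strand: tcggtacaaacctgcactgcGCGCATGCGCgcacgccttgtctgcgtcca
Atp5g2, NRF1, chr15:102671060-102671109, minus strand: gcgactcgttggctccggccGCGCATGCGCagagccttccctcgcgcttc
Cox6a1, NRF1, chr5:115349091-115349140, minus strand: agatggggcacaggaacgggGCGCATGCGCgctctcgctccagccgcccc
Cox7a1, MYB, chr7:30183977-30184022, plus strand: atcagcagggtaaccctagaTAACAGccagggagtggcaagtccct
Ndufaf5, MYB, chr2:140170571-140170616, plus strand: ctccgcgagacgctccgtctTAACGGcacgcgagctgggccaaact

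Median differences were set side by side for genes with and without a word. The 11 genes with the NRF1 word had a median difference of -0.08, and the 63 without it had -0.09. The 15 genes with the MYB word had -0.12, with 10 below 0, and the 59 without it had -0.08, with 42 below 0. The single genes printed above span both signs: -0.71 for Cox7a1 and 0.30 for Ndufaf5, both with a MYB word, and -0.28 for Ndufa11 beside 0.09 for Atp5g2, both with an NRF1 word. These medians were not tested.

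Neighbouring pathways gave 0 genes past the threshold (limma, adjusted p). The 31 assembly factors of the chain named outside the rule had a median difference of 0.06, with 12 below 0 and 0 at an unadjusted p under 0.05. Sdhaf1, which assembles complex II, had 0.46 (SE 0.22), and Uqcc3, which assembles complex III, had -0.33 (SE 0.18). Of 4 partners of ATP synthase, Atpif1, its inhibitor, had -0.22 (SE 0.16), and Tmem70, which helps to assemble it, had 0.18 (SE 0.21). Mitochondrial DNA was covered by the probe sets of COX2, the second subunit of complex IV, with 0.19, and ND3, of complex I, with 0.07.

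The citrate cycle, which feeds electrons into complexes I and II, had 13 genes with a median difference of 0.07. Idh3a, the catalytic subunit of NAD-dependent isocitrate dehydrogenase, read 6.24, 6.30 and 6.40 in knockout cells, against 5.74, 6.04 and 5.92 in Ctrl cells (difference 0.41, SE 0.14, limma unadjusted p = 0.0156). Idh2, the NADP-dependent mitochondrial enzyme, averaged 4.88 ± 0.26 in knockout cells, against 5.28 ± 0.13 in Ctrl cells (SD, n = 3 each, difference -0.40, SE 0.17, limma unadjusted p = 0.0379). The genotypes did not overlap in either gene, and both had an adjusted p of 0.999. The 16 genes of glycolysis had a median of 0.02, with 7 below 0 and 0 at an unadjusted p under 0.05. The glucose transporter Slc2a3 had -0.21 (SE 0.15), and the enzyme Aldoa had -0.18 (SE 0.16).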

How the data were processed

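RNA was purified with Trizol and Directzol columns and hybridised to Affymetrix arrays, per the labels' protocols. The authors deposited log2 expression values of 35556 probe sets in 6 arrays. RMA and Partek 6.6 are named in the submitters' processing notes. No genome build is given in the sources used here. RMA compresses differences of dim probe sets. GEO's platform annotation gave 1 symbol to 21789 probe sets, several to 1621, and did not list 12146. All 91 genes matched RefSeq.

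Genotypes were compared on the deposited log2 values, unfiltered, with limma 3.58.1 in R 4.3.3 (lmFit, eBayes, two-sided), with genotype as the only term and Benjamini-Hochberg adjustment over 19938 genes at 0.05. The fit was tested on simulated data. Gene lists were described by counts and medians, without a test.

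The members, lists and background level were chosen with earlier results of these data known. Genes named by rule were complex II, Cyc1, Cycs, Uqcrfs1, the 12 members with the smallest p, both extremes of each list, the 3 highest and 3 lowest means, the isoform families and subunit c, and, outside the members, the 2 smallest p-values of each list and 7 regulators and inhibitors. Other genes were named after their values were seen. MicroRNA seed sites in transcripts were not analysed here. Alternatives covered scaling, dim genes, variance prior, array weights, replicate block, sex-linked covariate, probe set choice and leaving out each array.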

Additional observations from a re-analysis of the deposited data

How the results depend on the processing

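No oxidative phosphorylation gene passed the threshold under any of 17 alternatives, where the lowest adjusted p among the 39 genes named by rule was 0.991 (limma). Over the series, 4 genes passed, 2 with the sex-linked covariate, 0 when every probe set of the table was tested, and 2 to 3 when an array was left out. The median difference of the 91 genes lay between -0.18 (without Ctrl replicate 1) and 0.01 (without Ctrl replicate 2) over 16 alternatives, 15 of them below 0. For ATP synthase it ran from -0.22 to 0.0089 over the arrays left out, against -0.06 with all, for complex II from -0.11 to 0.12, for complex III with cytochrome c from -0.13 to 0.10, and for complex IV from -0.13 to -0.05. Among 658 values of the named genes, 49 changed sign, in 22 genes, of which 3 had a difference over 0.2 in size. At an unadjusted p under 0.05, 8 of the 91 genes were lower without Ctrl replicate 1 (8.79%, against 3.22% of all genes in either direction), and 0 without Ctrl replicate 3 (against 2.82%). The causes were not tested.

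When replicate number entered as a block, the median difference of the 91 genes was -0.07, 4 of the 91 genes (4.40%, against 4.28% of all genes) had an unadjusted p under 0.05, all lower in knockout cells, and 0 passed. The deviations of same-numbered arrays correlated with r of 0.05, 0.15 and 0.14 over all genes and of 0.21, 0.39 and 0.31 over the 91 genes, and every knockout array correlated best with the Ctrl array of its own number. The labels do not say that the numbers mark pairs. With 3 arrays a genotype, the median interval of a gene's difference reached 0.39 to either side on the log2 scale.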

Other observations

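Complex I and complex IV each have a subunit gene with probe sets shared with another gene, which the choice by single symbol leaves out. Cox7c, a small subunit of complex IV, shared 3 probe sets with Gm12338, and their differences, knockout minus Ctrl, were 0.04, 0.04 and 0.07. Ndufb4, an accessory subunit of complex I, shared 2 probe sets with Ndufb4b, and their differences were -0.08 and -0.06. A further probe set shared by Ndufs5 and Ndufs5-ps read 7.28, 7.46 and 6.68 in knockout cells, against 6.85, 7.69 and 7.33 in Ctrl cells. Its arrays spread widely, as did those of the Ndufs5 probe set, with knockout replicate 3 lowest in both. Whether such signals come from the named gene or its copy cannot be told apart.

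Among the 18 genes with several probe sets, the probe sets had opposite signs in 5, and the gap between the lowest and the highest difference had a median of 0.04. For Cycs, the 3 probe sets had differences of 0.10, 0.02 and 0.06. For Ndufa11 both lay below 0, at -0.28 and -0.30, and the 6 probe sets of Atp5l lay between 0.01 and 0.05.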
